A study of Mus musculus with 2 samples.

Results

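The SR proteins and the heterogeneous nuclear ribonucleoproteins (hnRNPs) are the large families of RNA-binding splicing regulators, and their transcripts were followed here in heated and control mouse blood. Members were all array probes outside the controls whose gene name in the deposited files began with Srsf or Hnrnp, with Srsf5 left out. The choice gave 72 probes for 30 genes, of 56605 probes and 37074 gene names in all. SR proteins took 22 probes for 10 genes, and hnRNPs took 50 probes for 20 genes.

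Total RNA of mouse blood was labelled with Cy3 and hybridised to 1-colour Agilent arrays, 1 for heat and 1 for control. Per the labels, the heat sample was held in a water bath at 37 °C for 1 h as a pretreatment and then at 38.5 °C for 1 h, and the study asked which genes this affected. How the control sample was kept is not in the labels, so effects of the heat cannot be told apart from those of the pretreatment or of handling. They named no strain, age or sex and did not say whether animals or drawn blood were heated. Red and white cells were lysed differentially during RNA preparation and globin transcripts were removed, in both samples. Although the labels speak of 3 replicates, there was 1 array per group here. The differences therefore lack any check against replicates, and no p-values are given.

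SR proteins carry a domain rich in arginine and serine next to RNA-recognition motifs. They bind enhancer sequences, mostly in exons, and help the spliceosome choose nearby splice sites. hnRNPs coat nascent transcripts, many of them binding silencer sequences, and often act against SR proteins at the same exon. Both families also act in export, stability and translation of messenger RNA, and many members regulate their own transcripts by splicing. In cells under heat stress, phosphorylation of SR proteins and the location of several hnRNPs are known to change, neither of which an array of transcript levels measures.

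The probes shown here, 6 in number, illustrate what was measured, all 60 bases long, all designed on protein-coding RefSeq records and given 5′ to 3′ in the direction of the transcript. They were chosen after their values were seen, because they read as coding sequence, which was not checked against annotation. The Hnrnpa3, Hnrnpd and Hnrnpr probes carried some of the larger differences of the families, but the largest, -0.69 at the other Hnrnpd probe, is not printed. The Srsf3 and Srsf11 probes lay on the side to which most SR protein probes leaned. No base is marked in capitals. Coordinates are those of the files, on mm9. The Hnrnpa3 probes lay at chr2:75500576-75500719 and chr2:75500962-75501666 on the plus strand, the Hnrnpd probe at chr5:100393799-100395078 on the minus strand, and the Hnrnpr probe at chr4:135892335-135895122 on the plus strand. These 4 span more of the genome than their own length, so each bridges a gap between aligned blocks. The Srsf3 probe lay at chr17:29173333-29173392 on the plus strand and the Srsf11 probe at chr3:157689729-157689788 on the minus strand.
Hnrnpa3, upstream probe: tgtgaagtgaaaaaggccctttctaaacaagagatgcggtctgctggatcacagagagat
Hnrnpa3, middle probe: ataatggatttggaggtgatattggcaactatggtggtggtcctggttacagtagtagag
Hnrnpd, upstream probe: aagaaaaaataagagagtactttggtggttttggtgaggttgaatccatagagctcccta
Hnrnpr, second probe: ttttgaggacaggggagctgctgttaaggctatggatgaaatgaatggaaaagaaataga
Srsf3, upstream probe: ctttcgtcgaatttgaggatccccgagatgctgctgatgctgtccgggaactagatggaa
Srsf11, most upstream probe: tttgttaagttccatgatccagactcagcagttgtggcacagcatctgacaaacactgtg

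On the whole array, 53.8% of probes were well above background with heat and 52.0% in control, 50.8% on both. Signals are the scanner software's processed intensities. Every difference is log2 heat minus log2 control, after each array was scaled to its own 75th percentile, a signal of 604 for heat and 620.5 for control. Equal signals therefore give a difference slightly above 0. For scale, the scanner's own error estimate of a difference had a median of 0.20 on the log2 scale over the members' probes. Single spots of probes printed repeatedly had a standard deviation of 0.08 in difference. Many differences given below are no larger than these. Across 18562 genes measured on both arrays, 52.2% were higher with heat and 47.8% were lower, with a median of 0.01. Of the blood cell markers, 8 of 8 monocyte and macrophage genes were well above background on each array, against 5 of 8 neutrophil genes, 5 of 7 T cell genes and 1 of the 5 B cell genes with a probe. Of 5 genes each, 1 erythroid and 1 platelet gene were well above background on each array, and 2 NK cell genes with heat against 1 in control. Cd79a, Ms4a1 and Pax5 were not well above background on either array, nor were the neutrophil genes Ly6g, Cxcr2 and Retnlg. The median difference was 0.06 over the monocyte and macrophage markers, 0.02 over the 5 measured neutrophil markers and 0.14 over the 5 measured T cell markers. The remaining types had 1 gene measured on both arrays, with a difference of 0.33 for B cells, 0.26 for platelets, 0.03 for erythroid cells and -0.01 for NK cells. The part of cell composition in the results below was not tested. In whole blood, fewer cells of a type and less RNA per cell cannot be told apart.

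SR proteins were measured on both arrays at 9 of 10 genes, and 7 of these 9 (77.8%) were lower with heat, against 47.8% of all genes. The differences were small: the lowest gene was at -0.22, the median at -0.09 and the highest at 0.02. No SR protein gene differed by 2-fold, as 0.663% of all genes did, or by 0.5 on the log2 scale, as 4.38% of all genes did. These shares were not matched to brightness, and every measured SR protein gene was brighter than the median gene. Among genes that bright, the 1st and 99th percentiles of the difference were -0.45 and 0.39. Differences of 0.5 were thus rarer there, and their absence does not set the SR proteins apart.

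Srsf1, the prototype of the family and a binder of exonic enhancers, had a signal of 7228 with heat against 8630.0 in control at its coding-record probe. This put Srsf1 at -0.22, at the low end of the SR proteins. Its second probe, on a non-coding RefSeq record, was well above background on neither of the arrays. Srsf6, a member with a pair of RNA-recognition motifs, had signals of 7947 and 15534 with heat at its 2 probes, against 9689 and 18119 in control. Both Srsf6 probes were lower with heat, by -0.25 and -0.18. Srsf4, its close relative, had 4095 with heat and 4416 in control, a difference of -0.07. Srsf9, a small SR protein with a short arginine-serine domain, had 12185 and 18115 with heat against 13436 and 21173 in control. Its probes lay at -0.10 and -0.19, again on the same side.

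Srsf3, the smallest SR protein, which couples splicing to polyadenylation and export, had 11049.6 and 13599 with heat against 12011 and 15035 in control. The 2 Srsf3 probes, the upstream one printed above, lay close together at -0.08 and -0.11. Srsf7, which shares the export role, had 15868 with heat and 16167 in control at its single probe, a difference of 0.01. Srsf2, a component of nuclear speckles, had 21237 with heat and 23375 in control at its coding-record probe, which was -0.10. A dim Srsf2 probe on an Ensembl record had 89.6 with heat and 84.0 in control and lay at 0.13. The mean of these opposite values put Srsf2 at 0.02, and its sign depended on the dim probe.

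Srsf11, which contacts the U2AF factor that recognises 3′ splice sites, had the most probes of its family. Its 4 coding-record probes, taken from upstream to downstream in the transcript, had signals of 1564, 5018, 4673 and 7723 with heat, against 1916, 6033, 5220.4 and 8128 in control. Their differences were -0.25, -0.23, -0.12 and -0.04, so all were lower with heat and the gap was wider at the upstream probes. Its 2 Ensembl-record probes lay at -0.14 and 0.01. Srsf10, known from other studies as a splicing repressor that is dephosphorylated in heat-shocked cells, had 3191 with heat and 3639 in control at the brighter probe, a difference of -0.15. Its dimmer probe had 194 with heat and 187 in control, a difference of 0.09, so the probes disagreed in sign and the gene averaged -0.03. Srsf12, an antagonist of SR proteins, had signals of 5.03 and 5.78 with heat against 6.27 and 6.47 in control. Neither Srsf12 probe was well above background on either array, so no fold is given.

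**Figure D1:**
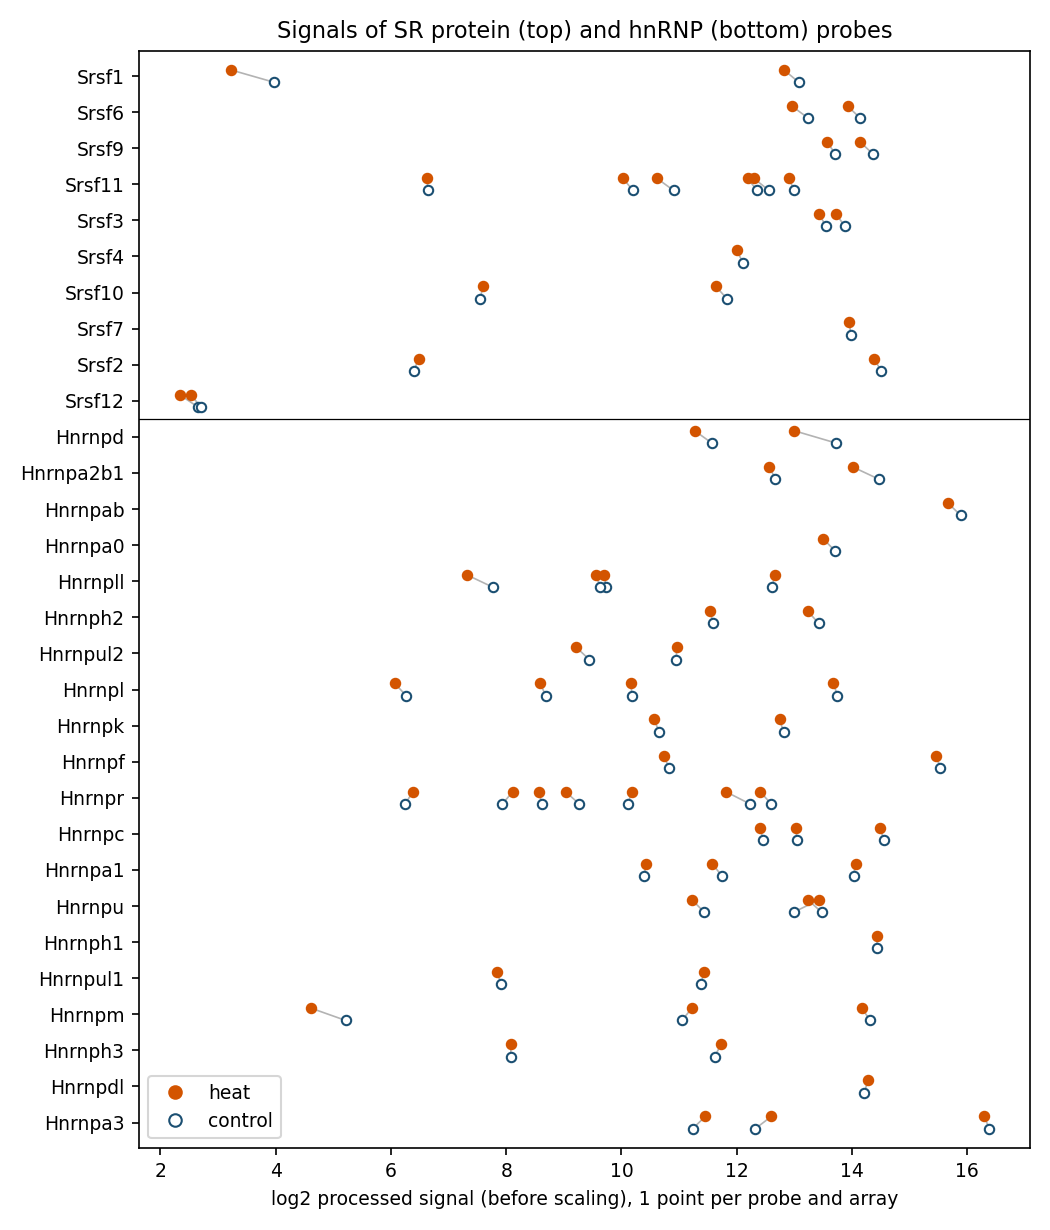
Log2 processed signal (x axis, before scaling) of each of the 72 probes, 1 row per gene, SR proteins above the line and hnRNPs below it; filled points are the heat array and open points the control array, joined for each probe. Probes of 1 gene mostly lie further apart than the arrays do at a probe, and both Srsf12 probes and 1 Srsf1 probe lie at the dim end.

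hnRNPs were measured on both arrays at all 20 genes, of which 8 were higher with heat and 12 (60%) were lower, against 47.8% of all genes. The median was -0.04, the lowest -0.47 and the highest 0.18. No hnRNP gene passed 0.5 on the log2 scale, and 1 probe did, of Hnrnpd, where 4.41% of all measured probes did. That share was not matched to brightness either, and every hnRNP gene was brighter than the median gene.

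The A/B-type proteins, relatives of hnRNP A1 with paired RNA-recognition motifs, held both ends of the range. Of these 7 genes, 3 were higher and 4 lower with heat, and their median was -0.17. Hnrnpd, known as AUF1, binds AU-rich elements and directs decay of their transcripts. Its downstream probe had 8182 with heat and 13519.6 in control, a difference of -0.69, or 1.61-fold lower with heat. Its upstream probe, printed above, had 2471 with heat and 3037 in control, a difference of -0.26, so both probes were lower and the gene averaged -0.47. Hnrnpa2b1, a repressor of exons that also carries RNA in transport granules, had 16506 with heat and 22612 in control at its downstream probe, a difference of -0.42. Its upstream probe had 6065 with heat and 6527 in control, only -0.07 apart. Both Hnrnpd and Hnrnpa2b1 thus had the larger difference at the probe nearer the 3′ end.

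Hnrnpab, a single-strand nucleic acid binder, had the signal 51932 with heat and 60507 in control, a difference of -0.18. Hnrnpa0, a binder of AU-rich elements in inflammatory transcripts, had 11624 with heat and 13435 in control, a difference of -0.17. Each rests on 1 probe. Hnrnpdl, the closest relative of Hnrnpd, lay on the other side, with 19883 with heat and 19018 in control and a difference of 0.10 at its single probe.

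Hnrnpa3, which binds RNA transport elements, was the highest hnRNP at 0.18, and its probes disagreed. The upstream and middle probes printed above had 2806 and 6212 with heat against 2412 and 5123 in control, differences of 0.26 and 0.32. The bright downstream probe had 80542 with heat and 85478 in control, a difference of -0.05. Hnrnpa1, the best studied splicing silencer of the family, had 1383 and 17119.9 with heat at its coding-record probes, against 1338 and 16699 in control. Those probes were at 0.09 and 0.07, while a probe on a non-coding RefSeq record of Hnrnpa1 had 3059 with heat and 3428 in control, a difference of -0.13. Per the files, all 3 Hnrnpa3 probes also match Gm6793 and 2 Hnrnpa1 probes also match Gm10052 or Gm5643, so their signals may not come from Hnrnpa3 and Hnrnpa1 alone.

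The F and H proteins bind runs of guanine near alternative exons and polyadenylation sites. Of these 4 genes, 2 were higher and 2 lower with heat, with a median of 0.00. Hnrnph3 had 3401 with heat and 3138 in control at its coding-record probe, a difference of 0.15, and 270.5 against 271 at an Ensembl-record probe, a difference of 0.04. Hnrnph3 was the only hnRNP with several probes that were all higher. Hnrnph1 had 22164 with heat and 22197 in control, a difference of 0.04. Hnrnph2 had 2967 and 9641 with heat against 3095 and 10989 in control, differences of -0.02 and -0.15. Hnrnpf had 1704 and 45208 with heat against 1814 and 47311 in control, differences of -0.05 and -0.03.

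Hnrnpu, also called scaffold attachment factor A, binds RNA and organises chromatin, and its probes spread more widely than those of any other member. A probe on a non-coding RefSeq record, the most downstream one on the genome, had 10970.1 with heat and 8146 in control, a difference of 0.47. Its 2 coding-record probes had 9676 and 2395 with heat against 11362 and 2772 in control, differences of -0.19 and -0.17. The gene mean of 0.03 therefore averages probes of opposite sign, and with coding-record probes alone Hnrnpu lay at -0.18. The non-coding record was not matched to a current gene symbol, so its place under Hnrnpu rests on the name in the files. The relatives Hnrnpul1 and Hnrnpul2, both linked to DNA damage signalling, also had mixed signs. Hnrnpul1 had 2774 and 230.1 with heat against 2653 and 240.5 in control, differences of 0.10 and -0.03. Hnrnpul2 had 1988 and 594 with heat against 1982 and 696 in control, differences of 0.04 and -0.19.

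Hnrnpr, a relative of the RNA-binding protein Syncrip, had 7 usable probes that were ordered along the gene. The 3 most upstream probes had 522, 3589.5 and 5427 with heat against 616, 4803 and 6203 in control, and their differences were -0.20, -0.38 and -0.15. The fourth had 381 with heat and 392 in control, a difference of 0.00. The 3 most downstream probes had 83.5, 1164 and 277 with heat against 75.8, 1104 and 245 in control, and their differences were 0.18, 0.11 and 0.22. The upstream probes were thus lower with heat and the downstream ones higher, and the gene mean of -0.03 describes neither stretch. Only the second and the last of the 7 differences were larger than the scanner's error estimate, the last barely, so this order is not firm. The last 2 probes are on an Ensembl record. A spread of 0.5 or more between probes was found at 2 of the 22 member genes with several usable probes, Hnrnpr with 0.60 and Hnrnpu with 0.66. Across all genes with several usable probes the share was 8.91%, close to that of the members, but it was not matched to their brightness.

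Hnrnpl, a binder of CA repeats, had 1152 and 13114 with heat against 1158 and 13761 in control at its coding-record probes, differences of 0.03 and -0.03. Its 2 dim Ensembl-record probes lay at -0.06 and -0.16. Hnrnpll regulates splicing of the leukocyte receptor CD45 in lymphocytes. Its coding-record probe had 6461 with heat and 6276 in control, a difference of 0.08. A dim probe on a GenBank record downstream of it had 161 with heat and 219 in control, a difference of -0.41, and 2 Ensembl-record probes lay at 0.01 and -0.03. The gene mean of -0.09 thus came mainly from the GenBank-record probe.

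Hnrnpm, a splicing regulator that binds GU-rich sites, had 2387 with heat and 2121 in control at its upstream coding-record probe, a difference of 0.21. Its downstream coding-record probe had 18409.5 with heat and 20443 in control, a difference of -0.11. The remaining Hnrnpm probe, on an Ensembl record, had 24.5 with heat and 37.1 in control and was well above background in control alone. Set against 24.9, the lowest signal well above background on the heat array, its signals gave a bound of 1.45-fold lower with heat. The bound takes the higher of that floor and the probe's own signal, and is 0.54 on the log2 scale. It leaves out the scanner error of this probe, 0.46 on that scale, and the control signal lay near its own floor of 31.0. The bound is therefore not a firm minimum. Hnrnpc, a binder of uridine tracts on nascent transcripts, differed least among genes with several probes, with 5433, 8329.8 and 23039 with heat against 5621, 8467 and 23998 in control. Its 3 probes lay between -0.02 and 0.02. Hnrnpk, which binds cytosine-rich sequence, had 1513 and 6865 with heat against 1614 and 7198 in control, differences of -0.05 and -0.03.

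**Figure D2:**
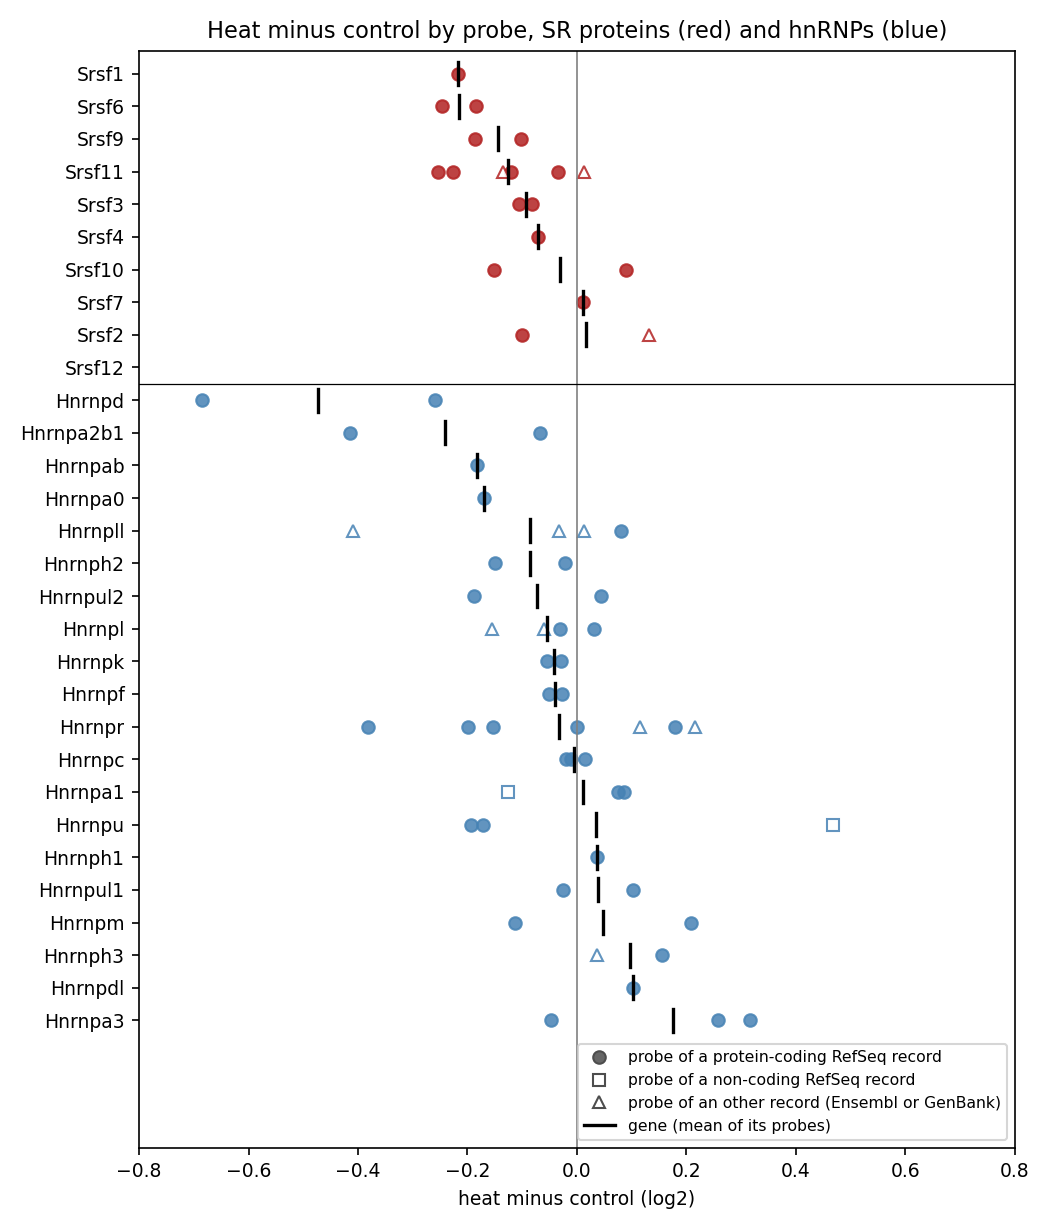
Heat minus control (x axis, log2 after 75th percentile scaling) of each probe well above background on both arrays, 1 row per gene, SR proteins in red and hnRNPs in blue; the marker shape gives the kind of record the probe was designed on and the black bar the gene mean. Most red points lie left of 0, the downstream Hnrnpd probe lies furthest left at -0.69, and Hnrnpu and Hnrnpr probes lie on both sides.

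The members not detected on either array were the Srsf12 probes and 1 Srsf1 probe. SR protein probes were well above background at 19 of 22 (86.4%) on each array. hnRNP probes were so at 49 of 50 (98%) with heat and all 50 in control. Of all probes on the array, 53.8% were so with heat and 52.0% in control. The detected SR protein probes had log2 signals of 6.49 (lowest), 12.82 (median) and 14.37 (highest) with heat, against 6.39, 12.99 and 14.51 in control. The detected hnRNP probes had 6.07, 11.58 and 16.30 with heat, against 6.24, 11.62 and 16.38 in control. Probe sequence as well as transcript level sets brightness, so the medians of the families do not rank their transcripts.

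Counted by probe, SR proteins had 4 higher and 15 lower with heat, and hnRNPs had 19 higher and 30 lower, where 51.8% of all measured probes were higher and 48.2% lower. The median over SR protein genes was 0.06 below that over hnRNP genes, as -0.06 on the log2 scale. With the brighter 50% of detected probes the gap was -0.14. It has no test. Differences larger than the scanner's own error estimate were found at 4 of 19 SR protein probes, all lower with heat, and at 10 of 49 hnRNP probes, 5 higher and 5 lower. Among all measured probes 21.4% passed that estimate, close to the share in either family. The SR protein probes past it were those of Srsf1, Srsf6 and Srsf11. Of the 6 SR protein genes with several usable probes, 3 had every probe lower and 0 had every probe higher. Of the 16 such hnRNP genes, 5 had every probe lower and 1 every probe higher. Across all genes with several usable probes, 24.5% had every probe lower and 27.6% every probe higher.

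**Figure D3:**
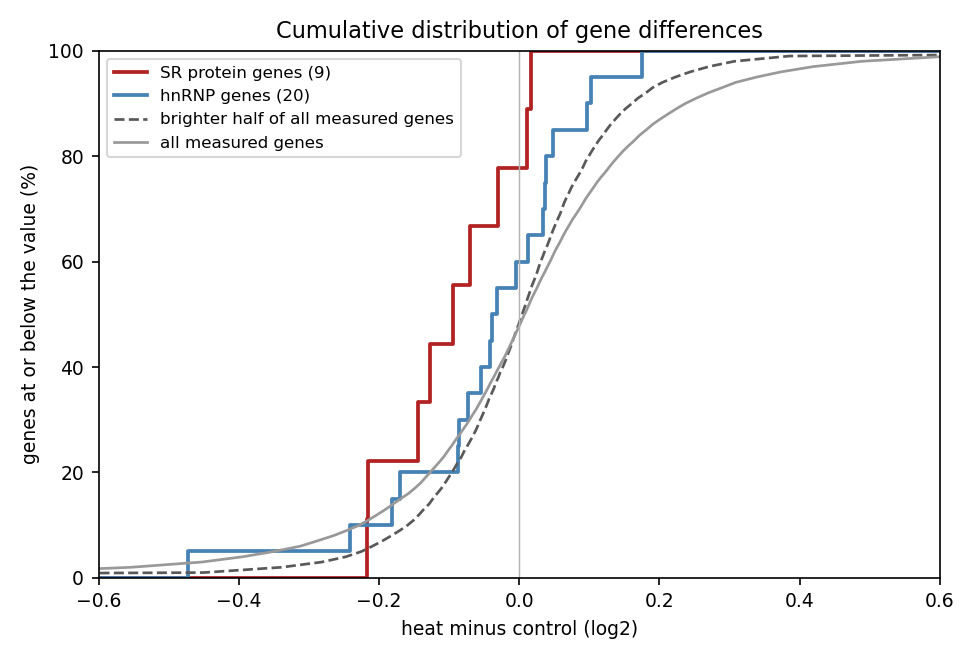
Cumulative share of genes (y axis, percent) at or below each heat minus control difference (x axis, log2) for 9 SR protein genes, 20 hnRNP genes, all 18562 measured genes and the brighter 50% of those. The SR protein curve lies left of the others above 22.2% and ends at 0.02, while the hnRNP curve crosses 0 at 60% and reaches from -0.47 to 0.18.

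The members were bright compared with the array. Ranked by mean signal in 4 equal bins of all measured genes, 6 SR protein genes and 14 hnRNP genes fell in the brightest bin and 3 and 6 in the next. In the brightest bin of all genes the median difference was 0.00 and 50.2% of genes were lower. The members' probes were also split by the kind of record they were designed on. Of 55 probes of protein-coding RefSeq records measured on both arrays, 16 were higher and 39 lower with heat, with a median of -0.05. Over the whole array, 9363 coding-record probes were higher and 9445 lower, and their median was 0.00. Of the members' 13 others, 7 were higher and 6 lower, and their median was 0.01. Over the whole array, 4851 probes of Ensembl or GenBank records were higher and 3880 lower, and 678 probes of non-coding RefSeq records were higher and 538 lower, with medians of 0.02 each. For SR proteins alone, 2 coding-record probes were higher and 14 lower, and the median was -0.11. In 13 member records with several probes, the difference at the upstream probe minus that at the downstream probe had a median of -0.02 and was positive at 6, against a median of 0.01 and 53.8% positive over 4143 such records on the array. The order seen along Hnrnpr and Srsf11, lower upstream, was thus not general among the members.

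Other splicing genes on the arrays were set beside the families from lists of known factors, where 52.2% of all genes were higher and 47.8% lower. SR-related proteins and the kinases that phosphorylate SR proteins had 15 genes higher and 7 lower with heat among 22 measured of 23, with a median of 0.04. The nuclear speckle scaffold Srrm2 was highest at 0.30, followed by the kinase Prpf4b at 0.21, and Rnps1 and Luc7l3 were lowest at -0.15 and -0.11. Core proteins of the spliceosome had 9 genes higher and 25 lower among 34, with a median of -0.03. Among them U2af2 lay at 0.25 and Sf3b1 at 0.15, and U2af1 lay at -0.24 and Sf3a2 at -0.17. Other RNA-binding regulators had 12 higher and 16 lower among 28, with a median of -0.01, from Elavl1 at -0.18 and Rbfox2 at -0.18 to Rbmx at 0.20 and Taf15 at 0.39. These are means over probes that could disagree: the 5 Srrm2 probes ran from -0.13 to 0.76 and the 3 Taf15 probes from 0.08 to 0.93. No gene mean of these lists was 0.5 or more apart, where 4.38% of all genes were, a share not matched to their brightness.

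Promoters of the members were searched for the sequence that heat shock factors bind, which is built from units of GAA and its reverse complement TTC in alternation. The search took the 250 bases before each start in RefSeq's annotation of GRCm38.p6 and the pairs GAANNTTC and TTCNNGAA, each of which reads the same on both strands. Matches that overlap were kept. A match was found at 1 of 10 SR protein genes (10%), Srsf9, and at 3 of the 18 hnRNP genes in the table (16.7%), Hnrnpa2b1, Hnrnpf and Hnrnpl, against 14.5% of all 27025 genes. Hnrnpa2b1 alone among the members held 3 alternating units, as 139 genes (0.514%) of the table did. The 100 bases before the start are shown for Hnrnpa2b1 (chr6:51469846-51469945, minus strand), where 2 matches beginning 38 and 33 bases before the start overlap, and for Hnrnpl (chr7:28810790-28810889, plus strand), where 1 match begins 96 bases before it. Capitals mark the matches, and the sequences are RefSeq's.
Hnrnpa2b1: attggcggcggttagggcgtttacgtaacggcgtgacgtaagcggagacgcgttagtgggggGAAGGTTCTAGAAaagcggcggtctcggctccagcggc
Hnrnpl: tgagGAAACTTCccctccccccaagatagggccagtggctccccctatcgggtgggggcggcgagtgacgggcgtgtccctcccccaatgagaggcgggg
These matches describe letters only. Hnrnpa2b1 transcripts lay at -0.24, Srsf9 at -0.14, Hnrnpl at -0.05 and Hnrnpf at -0.04. Of all 29 measured members, 19 (65.5%) were lower with heat. Whether genes with a match differ from those without was not tested.

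The order of the family medians was the same under each of 14 other ways of processing the arrays, with the SR proteins below the hnRNPs. Part of this was fixed in advance. Scaling to the median detected probe shifts every gene alike, so it could not change the gap. With outlier spots kept the gap was also unchanged. Membership by current symbol, and leaving out probes that match another gene, left the SR protein median unchanged. The gap between the family medians was narrowest at -0.05 and widest at -0.14.

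**Figure D4:**
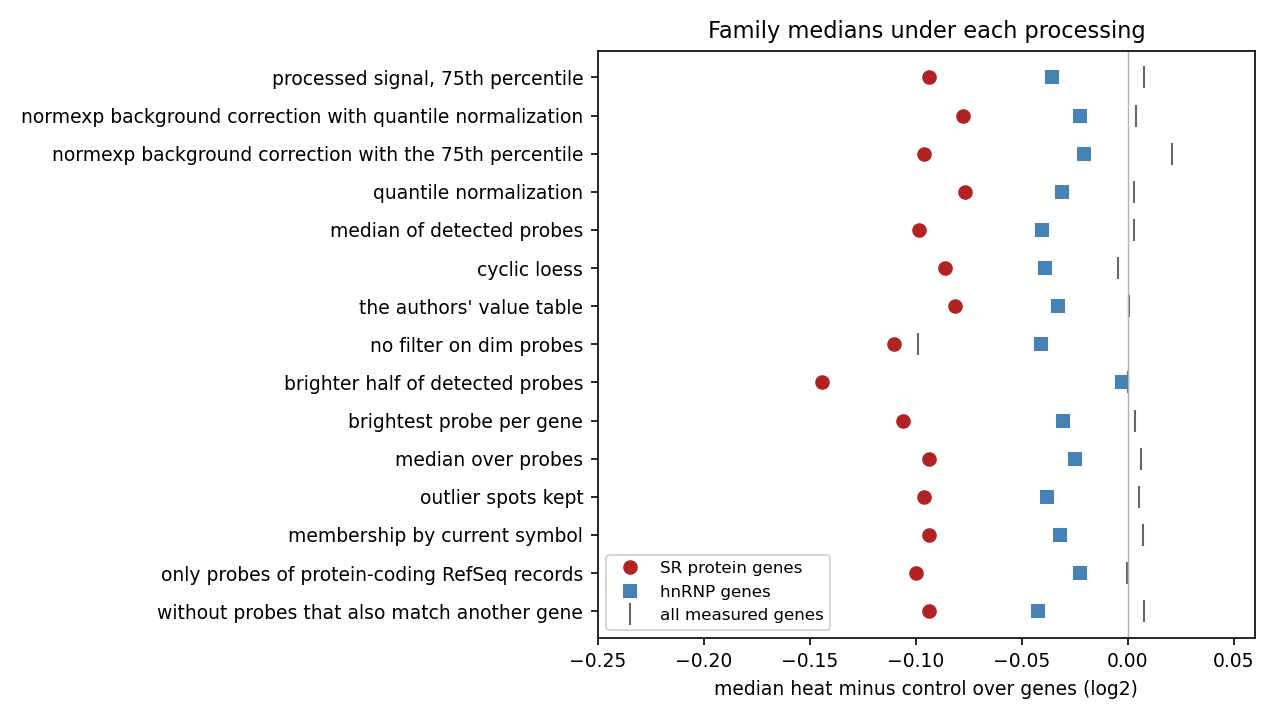
Median heat minus control (x axis, log2) over SR protein genes (red circles), hnRNP genes (blue squares) and all measured genes (grey ticks), 1 row for each way of processing the arrays. The SR protein median lies below the hnRNP median in every row, between -0.14 and -0.08, and the widest gap is with the brighter 50% of detected probes.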

How the data were processed

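Blood RNA was measured on 1 heat and 1 control array. The scanner software was Agilent Feature Extraction 10.7.1.1 with protocol GE1_107_Sep09, per the file headers, while the submitters' processing notes name version 9.1. Probes carry mm9 coordinates. Per the file headers, the deposited scanner columns are linear intensity values (processed, mean and background signal) and other flags, for outliers and for signal well above background. The authors' deposited table holds log2 values, which matched quantile-normalized processed signals on each array with r = 1.0, so its scale and direction are known.

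Outlier spots (168 heat, 149 control) were dropped, and repeated spots were averaged on the log2 scale. Detection required the flag at over 0.5 of a probe's spots. Each array's 75th percentile over the 56605 probes was subtracted. Genes carry the names in the files, and a gene's value averages those of its probes detected on both arrays. No probe was saturated. With 1 array per group no test was run. Sizes of 1 (2-fold) and 0.5 on the log2 scale were counted, and the scanner's error estimate was combined over both arrays.

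The members, gene lists and thresholds were chosen with earlier results of these data known. Genes given in full are the 4 highest and 4 lowest of each family and those with a probe past 0.5, with probes 0.5 or more apart, or with a probe not detected on both arrays. The other members follow in brief. Of other lists, the 2 highest and 2 lowest are named. Promoters were matched by symbol. The values of 1 marker gene are not reported here. The steps were tested on simulated data with planted changes of more than 2-fold. That test does not cover differences as small as those of the members.

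Other settings tried were cyclic loess, quantile normalization with and without normexp (offset 50), normexp with the 75th percentile, scaling to the median detected probe, the authors' table, all dim probes kept, the brighter 50% alone, the brightest or the median probe, outlier spots kept, a flag at every spot, and membership by current symbol. Using only coding-record probes, and leaving out probes that match another gene, were added after seeing the data. Python 3.11.15 with numpy 2.4.6, pandas 2.3.3 and matplotlib 3.10.9 was used, and R 4.3.3 with limma 3.58.1 and data.table in version 1.17.8.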

Additional observations from a re-analysis of the deposited data

How the results depend on the processing

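No paired analysis was possible because each group held 1 array. Across the 14 alternatives the SR protein median stayed between -0.14 and -0.08 and the hnRNP median between -0.04 and 0.00, with 6 to 9 hnRNP genes higher. The SR protein median minus the hnRNP median was -0.14 with the brighter 50% of detected probes, against -0.06, and ran from -0.14 to -0.05. The number of SR protein genes higher with heat was 1 instead of 2 under both normexp corrections, cyclic loess, coding-record probes alone, the brightest probe per gene and the brighter 50% of probes. The brightest probe per gene put 1 member gene, Hnrnpd, past 0.5, and no alternative put any at 2-fold. Without a filter on dim probes the median of all genes was -0.10, against 0.01, so the SR protein median of -0.11 there lay close to it. Of 29 genes, 20 kept their sign in every alternative (16 lower, 4 higher with heat) and 26 under the scalings, the exceptions being Hnrnpc, Srsf2 and Srsf7. Choices among detected probes could not change the 7 genes with 1 usable probe, so part of this agreement was fixed in advance. Hnrnpa3 was higher by its mean and lower by its brightest probe. Signals near 30 lie at the detection floor (24.9 with heat, 31.0 in control), so the dimmest probes carry little information. The causes were not tested.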
